A study of Mus musculus with 6 samples.

Results

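The genes described here are 33 that encode chaperones, folding enzymes, degradation factors and stress sensors of the endoplasmic reticulum. They were chosen by gene symbol among the 33682 rows of a gene expression table from cultured neonatal rat heart cells, and each symbol matched a single row. These cells were cultured in conditioned medium, meaning medium taken from a second culture, here of mast cells labelled BMMCs (bone marrow-derived mast cells) that had been treated with TNF-a, an inflammatory cytokine. In the first group the medium came from ALOX5-/- mast cells (Alox5KO medium, 3 samples), which lack 5-lipoxygenase, the enzyme that starts leukotriene synthesis. In the other group it came from wild-type mast cells (WT medium, 3 samples), and TNF-a had been given to the mast cells of both groups. The sequenced cells themselves are labelled WT in all 6 samples. Strain, age, TNF-a dose and time in medium are not given in the sources used here, and neither is whether replicates came from separate cultures, so p-values here rest on sample-to-sample spread alone, which could be technical. No sample without mast cell medium was analysed here, so a difference between the media cannot be read as a move from a resting level.

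Proteins bound for secretion or for membranes enter the endoplasmic reticulum through the Sec61 channel, fold there with the help of chaperones and disulfide isomerases, and are sent back to the cytosol for degradation if folding fails. When unfolded protein builds up, the sensors IRE1 (gene Ern1), ATF6 and PERK (gene Eif2ak3) start the unfolded protein response. ATF6 and the transcription factor XBP1, whose mRNA is spliced by IRE1, raise chaperone and degradation genes, while PERK slows translation and favours synthesis of ATF4. Fibroblasts secrete large amounts of collagen and other matrix proteins and depend on this machinery.

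The 3 libraries of each group are named by their labelled replicate number, KO1 to KO3 with Alox5KO medium and WT1 to WT3 with WT medium. They held between 13284088 and 15766187 reads, recovered from the deposited values. The labels call the cells cardiomyocytes, whereas the design text names fibroblasts. The median of 14 fibroblast markers lay between 339 and 839 FPKM (fragments scaled to gene length and library size) in every library, and that of 13 cardiomyocyte markers between 0.562 and 2.13 FPKM. The ventricular light chain Myl2 was listed at 0 in all 6 libraries, and Atp2a2, the cardiomyocyte marker of highest mean over all 6 libraries, averaged 56.1 ± 4.78 FPKM with Alox5KO medium and 67.8 ± 3.84 FPKM with WT medium (SD, n = 3 each). The cardiomyocyte list summed to between 159 and 182 FPKM with Alox5KO medium, against 96.6 to 121 FPKM with WT medium. Of its 8 tested genes 4 were called higher, against 10% of all genes tested. Among these 4 was Tnnt2, at 79.9 ± 10.6 FPKM with Alox5KO medium and 23.0 ± 6.92 FPKM with WT medium (SD, n = 3 each). Col1a1, the most abundant fibroblast marker, averaged 3741 ± 483 FPKM with Alox5KO medium and 3290 ± 577 FPKM with WT medium (SD, n = 3 each). Of the 14 fibroblast markers 4 fell (Dcn, Lum, Fn1 and Pdgfra) and 4 rose (Col3a1, Vim, Pdgfrb and Tcf21). Over all genes tested 10.6% were called lower and 10% higher. The matrix proteoglycan Dcn moved most, with 134 ± 66.3 FPKM with Alox5KO medium and 2219 ± 711 FPKM with WT medium (SD, n = 3 each), a log2 fold change of -4.10. Markers of smooth muscle and pericytes moved with the groups: 7 of 8 tested were called higher, against 10% of all genes tested. Their list summed to between 4962 and 6815 FPKM with Alox5KO medium, against 1074 to 1158 FPKM with WT medium, led by Tagln. Markers of endothelium, led by Egfl7, and of Schwann cells, led by Mbp, summed to under 16 FPKM in every library. The 12 leukocyte and mast cell markers summed to between 18.6 and 27.7 FPKM with Alox5KO medium, against 41.6 to 57.8 FPKM with WT medium, most of it from Cpa3, with 5 of them at 0 throughout (Cd3e, Mcpt4, Tpsb2, Fcer1a and Ms4a2). The part of these marker lists in the results below was not tested. In bulk RNA, fewer cells of a type and less RNA per cell cannot be told apart.

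The chaperone and stress response genes were lower in cells given Alox5KO medium. Of 32 members that passed the abundance filter, set at 1 FPKM for the mean of the 6 libraries, 21 fell, 0 rose and 11 did not pass the test (limma on log2(FPKM + 1), two-sided, Benjamini-Hochberg adjusted p under 0.05). Over all 12341 genes tested, 10.6% were called lower, and 1238 genes were called higher. The members were chosen with earlier results of these data known, so their counts beside these shares are descriptions and not tests. All 32 tested members had a negative log2 fold change, with a median of -0.44, although Selenos, Eif2ak3 and Herpud1 changed sign in 1 or more alternatives. Over all genes tested 50.1% were negative and the median was -0.0008. In 24 of the 32 every Alox5KO-medium library lay below every WT-medium library, against 18.8% of all genes tested. The 33 members together made up 0.834 ± 0.0226% of the summed FPKM with Alox5KO medium and 1.27 ± 0.0478% with WT medium (SD, n = 3 each). Without Calr, Hspa5 and Hsp90b1, all among the 4 most abundant members, the share was 0.564 ± 0.013% with Alox5KO medium and 0.763 ± 0.0228% with WT medium. Of the 21 falls, 14 held under every alternative in which they were tested. That was all 16 alternatives for each of them except Ero1b, tested in 15 because its mean lies below the filter at 5 FPKM, and leaving out WT1 or WT2 left 14 falls.

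**Figure D1:**
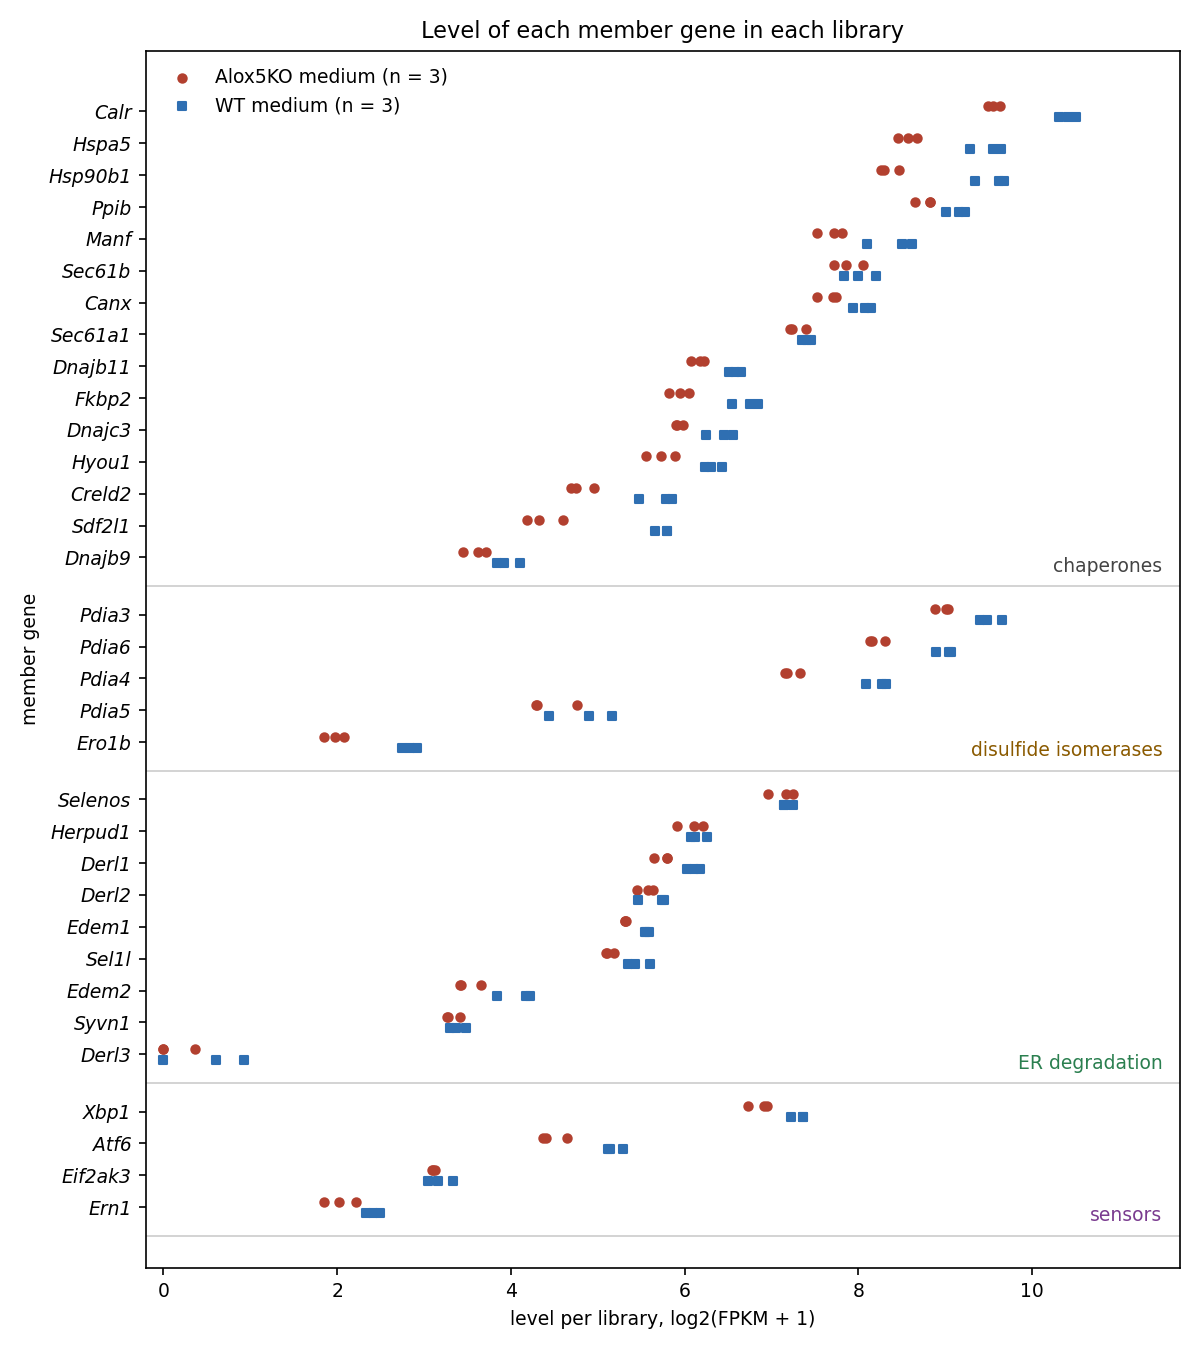
Level of all 33 members in each library as log2(FPKM + 1), grouped by role and ordered by mean level, with 3 Alox5KO-medium libraries (red circles) above 3 WT-medium libraries (blue squares) on each row. In 24 of the 32 tested members the red circles all lie to the left of the blue squares, and Derl3 lies at or near 0.

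**Figure D2:**
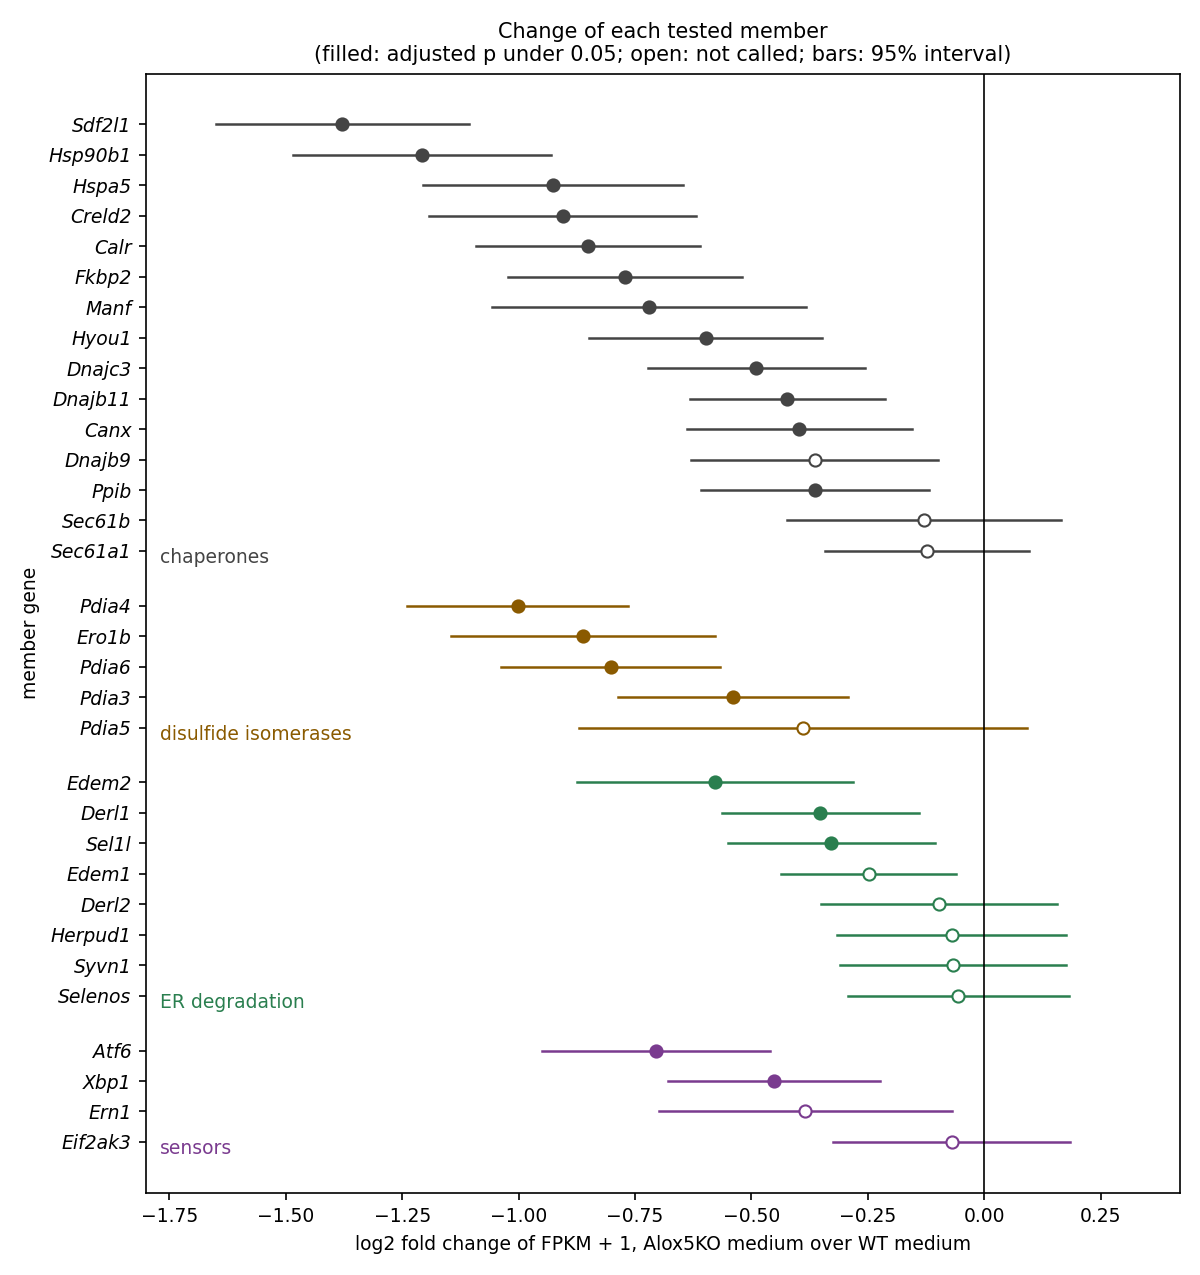
The log2 fold change of FPKM + 1, Alox5KO medium over WT medium, for the 32 tested members, with 95% intervals from limma. Filled points passed the test, 21 in all and all negative, and open points did not. Sdf2l1 lies lowest at -1.38, and Selenos lies nearest to 0 at -0.06.

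Several members are classic targets of ATF6 and XBP1, which bind short promoter elements first described in mammalian chaperone genes. The sequences below show where such elements stand in mouse, the species of the RefSeq promoter table used here (build GRCm38.p6, 250 bases before to 50 bases after each start site). The rat sequences were not used here. Of the 33 members, 28 were matched in that table by symbol, and Atf6, Derl1, Hyou1, Manf and Sec61a1 were not. The ER stress element ERSE, searched on both strands as CCAAT, any 9 bases and CCACG, was found in a promoter of 10 of the 28 members. It was found for 0.137% of all 27025 gene symbols, and in 0.119% of all 32851 promoters. The shorter ERSE-II, searched on both strands as ATTGG, any 1 base and CCACG, was found in 2 members and for 0.0444% of all symbols. The element UPRE, searched on both strands as TGACGTGG, was found in 0 members and for 0.714% of all symbols. Only exact matches to these letters were counted, so variants of the elements are not. The Hspa5 stretch below, for example, holds TGACGTGA, which differs from the searched UPRE in its last base. No match to one of these motifs overlapped a match to another. Each match is written here 5′ to 3′ on the strand that reads as the motif, with the fixed letters in capitals, and with its place counted from the start site as 1:
Hspa5, ERSE, chr2:34772025-34772043, plus strand, -65 to -47: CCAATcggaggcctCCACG
Hsp90b1, ERSE, chr10:86705638-86705656, minus strand, -212 to -194: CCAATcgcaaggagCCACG
Hsp90b1, ERSE, chr10:86705533-86705551, plus strand, -107 to -89: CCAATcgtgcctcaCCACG
Calr, ERSE, chr8:84847075-84847093, plus strand, -162 to -144: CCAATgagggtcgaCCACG
Canx, ERSE, chr11:50325800-50325818, minus strand, -145 to -127: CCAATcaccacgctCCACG
Creld2, ERSE, chr15:88819520-88819538, minus strand, -126 to -108: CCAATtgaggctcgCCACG
Dnajc3, ERSE, chr14:118937827-118937845, plus strand, -105 to -87: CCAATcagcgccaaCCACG
Pdia6, ERSE, chr12:17266491-17266509, plus strand, -98 to -80: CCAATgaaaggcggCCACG
Ero1b, ERSE, chr13:12565682-12565700, minus strand, -201 to -183: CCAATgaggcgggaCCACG
Syvn1, ERSE, chr19:6046532-6046550, plus strand, -44 to -26: CCAATcggcggtagCCACG
Derl3, ERSE, chr10:75893242-75893260, minus strand, -156 to -138: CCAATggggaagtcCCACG
Herpud1, ERSE-II, chr8:94386377-94386387, plus strand, -52 to -42: ATTGGgCCACG
Dnajb11, ERSE-II, chr16:22857852-22857862, plus strand, 8 to 18: ATTGGcCCACG

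The mouse promoters of 3 members are shown whole up to the start site: Hspa5 as the best known chaperone target, Hsp90b1 for its 2 elements, and Sdf2l1, the member with the largest fall, for its lack of an exact full element. Each runs 5′ to 3′ along its gene and ends at base -1. Capitals mark the fixed letters of ERSE in Hspa5 and Hsp90b1, and the second element of Hsp90b1 reads in reverse complement. Exact matches alone are marked, so lower case does not exclude a variant element. In Sdf2l1 they mark CCAAT and CCACG on either strand, 3 matches of each, which stand at spacings other than that of ERSE, and CCAAT occurs in 37.4% and CCACG in 32.8% of all promoters on either strand.
Hspa5, chr2:34771840-34772089, plus strand: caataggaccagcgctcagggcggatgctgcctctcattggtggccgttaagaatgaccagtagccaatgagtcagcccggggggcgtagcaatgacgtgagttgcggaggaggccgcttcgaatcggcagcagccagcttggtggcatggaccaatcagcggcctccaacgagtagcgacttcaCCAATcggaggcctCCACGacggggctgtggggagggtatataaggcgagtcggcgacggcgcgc
Hsp90b1, chr10:86705445-86705694, minus strand: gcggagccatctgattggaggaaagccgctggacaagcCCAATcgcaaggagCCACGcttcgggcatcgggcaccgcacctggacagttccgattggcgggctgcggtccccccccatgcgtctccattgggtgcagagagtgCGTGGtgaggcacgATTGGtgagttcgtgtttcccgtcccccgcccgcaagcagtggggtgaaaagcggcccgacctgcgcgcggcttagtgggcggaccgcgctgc
Sdf2l1, chr16:17132384-17132633, minus strand: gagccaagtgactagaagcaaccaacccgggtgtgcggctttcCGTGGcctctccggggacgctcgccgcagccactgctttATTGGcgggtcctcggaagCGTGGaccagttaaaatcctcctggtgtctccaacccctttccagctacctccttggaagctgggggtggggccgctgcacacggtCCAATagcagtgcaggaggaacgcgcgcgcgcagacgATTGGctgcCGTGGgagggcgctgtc

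Among the rat genes of this table, 9 of the 10 members with ERSE in mouse were tested and 8 of them fell (median log2 fold change -0.85). Over all genes tested 10.6% were called lower. Among the 16 matched members with no exact match to ERSE or ERSE-II, 8 fell and the median was -0.37. This set holds Sdf2l1, which had the largest fall of all members. An element did not go with a fall in every member. Syvn1 carries ERSE and Herpud1 carries ERSE-II in mouse, and their log2 fold changes of -0.07 each did not pass the test. These counts describe matches in mouse sequence beside values in rat cells and were not tested.

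**Figure D3:**
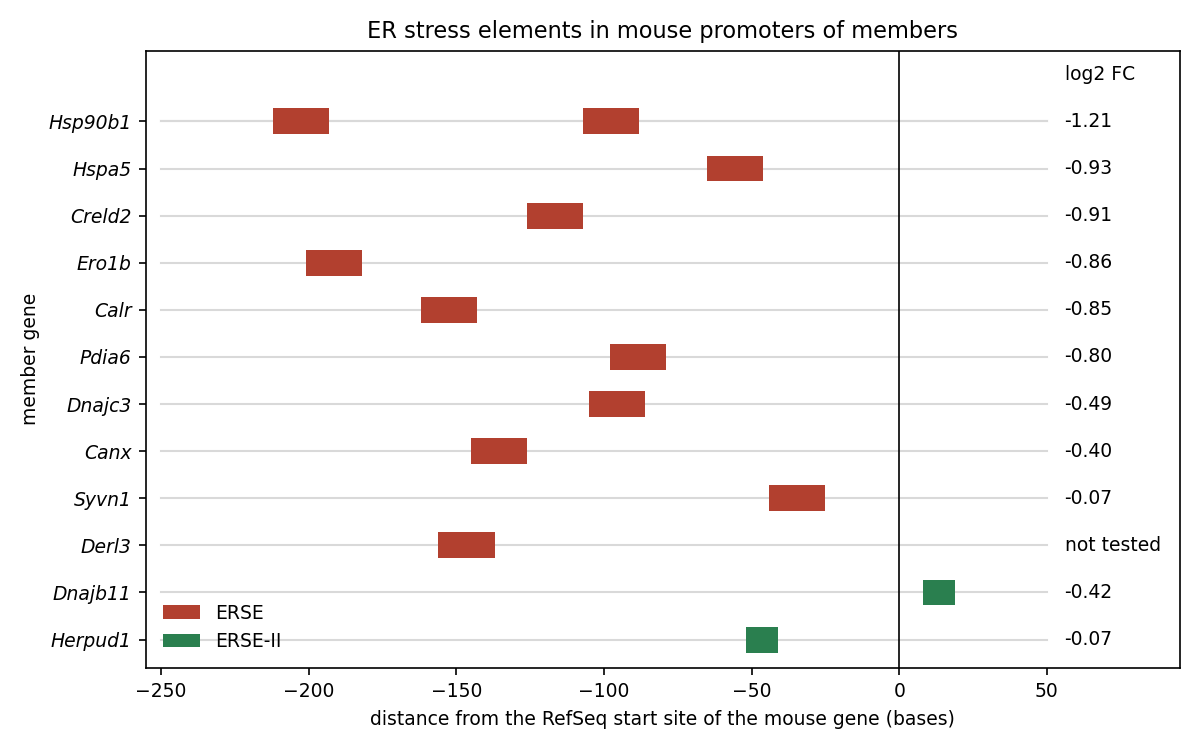
Place of ERSE (red) and ERSE-II (green) in the mouse promoters of the 12 members that carry either, as distance in bases from the RefSeq start site, with the log2 fold change of the rat gene, Alox5KO medium over WT medium, on the right. Members are ordered by fold change within each motif, from Hsp90b1 at -1.21 to Syvn1 at -0.07 for ERSE.

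The chaperones, here taken with 2 Sec61 subunits and 2 prolyl isomerases, held most of the falls. Of these 15 members 12 fell (80%, against 10.6% of all genes tested) and 3 did not pass the test. Their median log2 fold change was -0.60. Calr, calreticulin, a lectin chaperone that also stores calcium, was the most abundant member. Calr had 748, 721 and 792 FPKM with Alox5KO medium, against 1365, 1450 and 1266 FPKM with WT medium. Its groups lay far apart, and the log2 fold change was -0.85 (SE 0.11, Benjamini-Hochberg adjusted p = 0.00057 by limma). Hspa5, the HSP70 chaperone BiP, binds unfolded chains and keeps the stress sensors inactive. Its levels were 351, 407 and 381 FPKM with Alox5KO medium, against 750, 799 and 625 FPKM with WT medium. The highest Alox5KO-medium value of Hspa5 was thus well below the lowest WT-medium value, and the log2 fold change was -0.93 (SE 0.12, Benjamini-Hochberg adjusted p = 0.00083 by limma). Hsp90b1, the HSP90 chaperone GRP94, which folds integrins among other clients, had 312, 354 and 306 FPKM with Alox5KO medium, against 784, 820 and 651 FPKM with WT medium. Its mean with Alox5KO medium was 43.1% of that with WT medium, a log2 fold change of -1.21 (SE 0.12, Benjamini-Hochberg adjusted p = 0.00018 by limma). Hspa5 (ENSRNOG00000018294) lies on chromosome 3 from 13838304 to 13842762 and Hsp90b1 (ENSRNOG00000026963) on chromosome 7 from 27226569 to 27240533, in the coordinates of the deposited table, for which the sources used here name no rat build.

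Sdf2l1, which works with BiP and its DNAJ partners and is strongly induced by stress, had the largest fall. It had 19.1, 17.2 and 23.2 FPKM with Alox5KO medium, against 54.8, 54.4 and 49.4 FPKM with WT medium. Sdf2l1 (ENSRNOG00000001859) lies on chromosome 11 from 88122271 to 88124513. Its groups did not overlap, and the log2 fold change was -1.38 (SE 0.12, 95% interval -1.65 to -1.11, Benjamini-Hochberg adjusted p = 6.6e-05 by limma). Creld2, a stress-induced secretory protein, had 24.9, 25.8 and 30.1 FPKM with Alox5KO medium, against 54.1, 56.9 and 43.4 FPKM with WT medium. Manf, a small protein that binds BiP and is also secreted, had 224, 184 and 210 FPKM with Alox5KO medium, against 361, 393 and 273 FPKM with WT medium. In both genes WT3 was the lowest of its group and still above all Alox5KO-medium libraries, and the log2 fold changes were -0.91 and -0.72.

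The cochaperones of BiP fell less in value. Hyou1, which exchanges the nucleotide of BiP, had 46.1, 51.8 and 58.2 FPKM with Alox5KO medium, against 74.5, 84.9 and 77.7 FPKM with WT medium. Dnajc3 had 59.2, 58.8 and 61.9 FPKM with Alox5KO medium, against 86.9, 92.8 and 75.1 FPKM with WT medium. Dnajb11 had 73.4, 66.2 and 71.4 FPKM with Alox5KO medium, against 94.4, 99.6 and 89.9 FPKM with WT medium. None of these 3 genes had overlapping groups, with log2 fold changes of -0.60 for Hyou1, -0.49 for Dnajc3 and -0.42 for Dnajb11. The call of Dnajb11 was lost without WT1 or WT2 (limma with Benjamini-Hochberg adjustment, adjusted p = 0.054 and 0.056). Dnajb9, a stress-induced DNAJ protein that restrains IRE1, also had groups apart, at 12.1, 9.89 and 11.3 FPKM with Alox5KO medium, against 14.2, 16.2 and 13.3 FPKM with WT medium. Its log2 fold change of -0.36 missed the threshold (adjusted p = 0.058, limma with Benjamini-Hochberg adjustment).

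Canx, calnexin, the membrane-bound partner of calreticulin, had 208, 213 and 183 FPKM with Alox5KO medium, against 269, 283 and 245 FPKM with WT medium. It fell less than Calr in value, by 0.40 on the log2 scale, and the difference between the 2 genes was not tested. The call of Canx was lost without WT1, WT2, KO1 or KO3, where limma gave Benjamini-Hochberg adjusted p-values of 0.053 to 0.11, and with quantile normalization, where it gave 0.053. The prolyl isomerases Fkbp2 and Ppib both fell. Fkbp2 had 65.1, 60.5 and 55.7 FPKM with Alox5KO medium, against 114, 106 and 92.0 FPKM with WT medium, a log2 fold change of -0.77. Ppib, cyclophilin B, which acts on collagen chains, had 451, 402 and 453 FPKM with Alox5KO medium, against 597, 572 and 514 FPKM with WT medium. The log2 fold change of Ppib was -0.36, and its call was lost in 9 of 16 alternatives, where limma gave Benjamini-Hochberg adjusted p-values of 0.053 to 0.19, including every omission of a single library other than WT3.

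The Sec61 channel subunits did not pass the test. Sec61a1, which forms the pore, had 147, 149 and 168 FPKM with Alox5KO medium, against 169, 175 and 162 FPKM with WT medium. Sec61b, an accessory subunit, had 264, 210 and 232 FPKM with Alox5KO medium, against 254, 293 and 227 FPKM with WT medium. Both genes had overlapping groups, and the 95% intervals of their log2 fold changes were -0.34 to 0.10 for Sec61a1 and -0.42 to 0.17 for Sec61b.

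Of the 5 disulfide isomerase genes, with the oxidase Ero1b counted among them, 4 fell (80%, against 10.6% of all genes tested). Pdia5 did not pass the test, and the median log2 fold change of the 5 was -0.80. Pdia4, which has several thioredoxin-like domains and binds BiP, had 144, 142 and 159 FPKM with Alox5KO medium, against 309, 318 and 270 FPKM with WT medium. It fell by 1.00 on the log2 scale (SE 0.11, Benjamini-Hochberg adjusted p = 0.00021 by limma). Pdia6, which can also attenuate the sensors, had 284, 279 and 316 FPKM with Alox5KO medium, against 527, 533 and 475 FPKM with WT medium, a log2 fold change of -0.80. Pdia3, the isomerase that serves calreticulin and calnexin, had 523, 471 and 514 FPKM with Alox5KO medium, against 716, 802 and 677 FPKM with WT medium, a log2 fold change of -0.54. In these 3 genes no library crossed to the other group. Ero1b, which reoxidizes the isomerases, was much less abundant, with 3.24, 2.61 and 2.94 FPKM with Alox5KO medium, against 5.69, 6.58 and 6.13 FPKM with WT medium. These Ero1b values rest on 440 reads with Alox5KO medium and 826 with WT medium, and the log2 fold change was -0.86 (adjusted p = 0.0013, limma with Benjamini-Hochberg adjustment). Pdia5 had 18.7, 26.0 and 18.5 FPKM with Alox5KO medium, against 34.9, 20.7 and 28.9 FPKM with WT medium. Its groups overlapped and its spread within the WT group was the widest of all tested members, at 25.4% of the mean.

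Degradation genes differed less than chaperones in value, with a median log2 fold change of -0.17. Of 8 tested, 3 fell (37.5%, against 10.6% of all genes tested) and 5 did not pass the test. Edem2, a mannosidase that marks misfolded glycoproteins, had 9.66, 9.76 and 11.6 FPKM with Alox5KO medium, against 17.6, 17.1 and 13.3 FPKM with WT medium, a log2 fold change of -0.58. Derl1, a membrane protein of the export channel, had 54.5, 49.1 and 54.8 FPKM with Alox5KO medium, against 67.7, 71.1 and 64.2 FPKM with WT medium, a log2 fold change of -0.35. Sel1l, the adaptor of the ubiquitin ligase Syvn1, had 33.4, 35.5 and 33.2 FPKM with Alox5KO medium, against 39.8, 42.1 and 47.4 FPKM with WT medium, a log2 fold change of -0.33. None of these 3 calls held throughout. That of Sel1l was lost without any single library and in 12 of 16 alternatives, that of Derl1 without WT1, WT2 or KO2, and that of Edem2 without WT1 or WT2. The degradation genes that fell thus numbered 0 without WT1 or WT2, and 1 without KO2.

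The 5 tested degradation genes that did not pass include parts of the same ligase complex. Edem1 had groups apart, at 38.7, 38.7 and 39.1 FPKM with Alox5KO medium, against 45.6, 47.3 and 45.9 FPKM with WT medium, and a log2 fold change of -0.25 (adjusted p = 0.067, limma with Benjamini-Hochberg adjustment). Herpud1, a scaffold of the ligase complex and a strongly stress-induced gene, had 59.3, 68.0 and 73.3 FPKM with Alox5KO medium, against 68.4, 75.6 and 66.3 FPKM with WT medium. The values of Herpud1 were interleaved, and the 95% interval of its log2 fold change ran from -0.32 to 0.18. Syvn1 averaged 8.97 ± 0.594 FPKM with Alox5KO medium and 9.45 ± 0.681 FPKM with WT medium (SD, n = 3 each). Derl2 and Selenos, which act in the export step, had log2 fold changes of -0.10 and -0.06 with overlapping groups. Derl3 did not pass the abundance filter: it was listed at 0 in 2 Alox5KO-medium libraries and 1 WT-medium library, and rested on 3 reads with Alox5KO medium and 14 with WT medium.

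Of the stress sensors and their effector, Atf6 and Xbp1 fell, while Ern1 and Eif2ak3 did not pass the test. That is 2 of 4, against 10.6% of all genes tested. Atf6, the membrane-bound factor released by cleavage, had 20.2, 24.1 and 19.7 FPKM with Alox5KO medium, against 34.3, 33.6 and 38.2 FPKM with WT medium. The Atf6 groups did not overlap, and the log2 fold change was -0.71 (SE 0.11, Benjamini-Hochberg adjusted p = 0.0018 by limma). Xbp1 had 105, 119 and 123 FPKM with Alox5KO medium, against 164, 163 and 149 FPKM with WT medium, a log2 fold change of -0.45 (SE 0.10, Benjamini-Hochberg adjusted p = 0.012 by limma). Its call was lost without WT1 or WT2, where limma gave Benjamini-Hochberg adjusted p-values of 0.066 and 0.052, so that without either library 1 of the 4 genes fell. A gene-level value does not separate spliced from unspliced Xbp1 mRNA, so IRE1 activity was not measured. Ern1 had 3.05, 3.66 and 2.61 FPKM with Alox5KO medium, against 4.03, 4.34 and 4.63 FPKM with WT medium, groups that did not overlap, with a log2 fold change of -0.38 (adjusted p = 0.087, limma with Benjamini-Hochberg adjustment). Eif2ak3 had 7.53, 7.76 and 7.60 FPKM with Alox5KO medium, against 7.93, 7.28 and 9.06 FPKM with WT medium. These overlapped, and the 95% interval of the log2 fold change ran from -0.33 to 0.19.

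**Figure D4:**
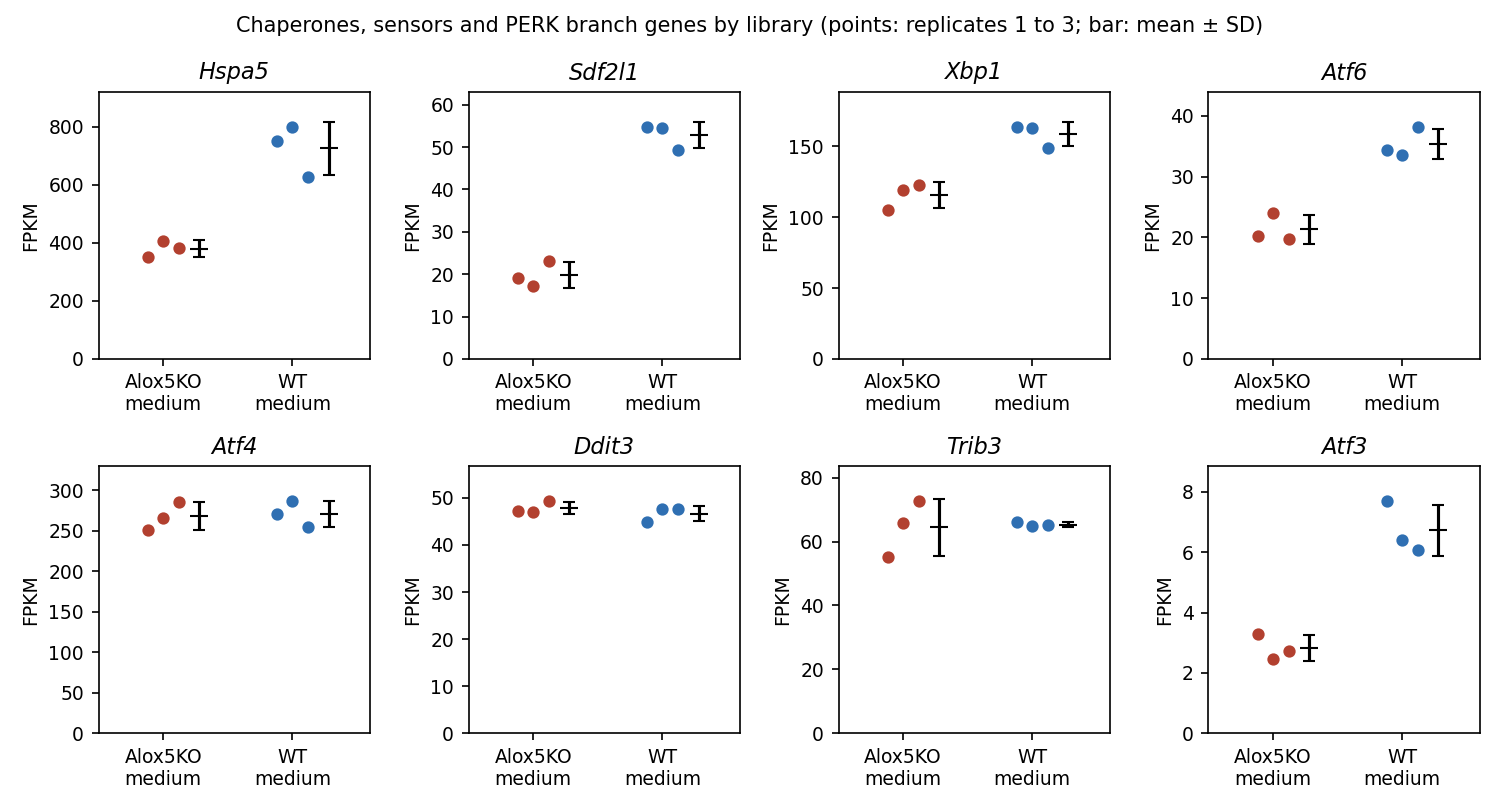
FPKM in each library (points), with the mean and SD of 3 replicates (bars), for Hspa5, Sdf2l1, Xbp1 and Atf6 in the upper row and the PERK branch genes Atf4, Ddit3, Trib3 and Atf3 in the lower row, Alox5KO medium left of WT medium. Each axis starts at 0. The groups are apart in all of the upper row and in Atf3, and overlap in Atf4, Ddit3 and Trib3.

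The arm of the response that runs through PERK and ATF4 did not show the same uniform direction. Of 23 tested genes of that list 6 fell (26.1%, against 10.6% of all genes tested), 3 rose (13%, against 10%) and 14 did not pass. The median log2 fold change was -0.06, and only 3 falls were called without WT1. In 9 of the 23 every Alox5KO-medium library lay below every WT-medium library (18.8% of all genes tested). In 4 of the 23 every one lay above (2321 of all 12341 genes tested). Atf4, its central transcription factor, had 252, 266 and 286 FPKM with Alox5KO medium, against 271, 287 and 254 FPKM with WT medium. Ddit3, the pro-apoptotic factor CHOP, had 47.2, 47.0 and 49.3 FPKM with Alox5KO medium, against 44.9, 47.6 and 47.6 FPKM with WT medium. Both sets of values overlapped, as did those of the pseudokinase Trib3, and the 95% intervals of the log2 fold changes were -0.24 to 0.21 for Atf4, -0.16 to 0.23 for Ddit3 and -0.28 to 0.23 for Trib3. Atf3, a factor induced by many stresses besides this one, averaged 2.82 ± 0.421 FPKM with Alox5KO medium and 6.72 ± 0.861 FPKM with WT medium (SD, n = 3 each), a fall of the log2 value by 1.01 (adjusted p = 0.0010, limma with Benjamini-Hochberg adjustment). Ddit4, an inhibitor of mTOR signalling, and Shmt2, a mitochondrial enzyme of serine metabolism, had log2 fold changes of -0.67 and -0.70, both past the test. The other 3 falls, named after their values were seen, were Stc2, a secreted glycoprotein, the transcription factor Cebpb, and Psat1, an enzyme of serine synthesis, with log2 fold changes of -1.49, -1.25 and -0.56. Cebpb averaged 119.7 ± 35.6 FPKM with Alox5KO medium and 279.6 ± 56.8 FPKM with WT medium (SD, n = 3 each). Vldlr, a lipoprotein receptor, Chac1, which breaks down glutathione, and the factor Atf5 rose by 1.05, 0.50 and 0.46, and the call of Atf5 was lost in 5 of 16 alternatives, among them without WT1, WT2, KO2 or KO3. Whether the PERK list differs from the members was not tested. All of these are mRNA levels, so PERK activity and the synthesis of ATF4 protein were not measured.

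Other folding factors of the reticulum leaned the same way as the members in part. Of 35 tested, 10 fell, 0 rose and 25 did not pass, with a median log2 fold change of -0.15, against 10.6% lower over all genes tested. P4hb, the major disulfide isomerase and a subunit of collagen prolyl hydroxylase, averaged 670 ± 31.7 FPKM with Alox5KO medium and 1137 ± 97.8 FPKM with WT medium (SD, n = 3 each), a log2 fold change of -0.76 (adjusted p = 0.0013, limma with Benjamini-Hochberg adjustment). Uggt1, the sensor that returns unfolded glycoproteins to calreticulin and calnexin, averaged 20.7 ± 1.54 FPKM with Alox5KO medium and 37.9 ± 2.77 FPKM with WT medium (SD, n = 3 each), a log2 fold change of -0.84. Sil1, another nucleotide exchange factor of BiP, fell by 0.44, a call lost without WT1, WT2, KO1 or KO2. The remaining 7, named after their values were seen, were Tmx2, Ero1a, Erp29, Dnajc10, Serp1, Ganab and Rcn3, with log2 fold changes between -0.31 and -0.50. The count of 10 depended on single libraries, falling to 2 without WT1 and to 3 without WT2, KO1 or KO2, and to 6 without the abundance filter, with TPM scaling, or without the variance trend and robust prior.

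The lists that act before and after folding are set beside 10.6% lower and 10% higher over all genes tested. Of 24 translocon, signal peptide and N-glycosylation genes 2 fell (8.33%) and 0 rose, with a median log2 fold change of -0.22, and in 9 of the 24 every Alox5KO-medium library lay below every WT-medium library (18.8% of all genes tested), with 7 falls called without WT3 and 1 without WT2. Those that fell were Spcs3, a signal peptidase subunit, by 0.65, and Rpn2, an oligosaccharyltransferase subunit, by 0.42, and the call of Rpn2 was lost without WT2. Of 24 further degradation factors 0 fell and 1 rose, Ngly1, which strips glycans from exported proteins, with a log2 fold change of 0.41 that passed in 10 of 16 alternatives and was lost without any single library except KO2. Of 30 genes of transport to the Golgi 1 fell, the SNARE Bet1, with a log2 fold change of -0.49, and 0 rose. The call of Bet1 was lost in 6 alternatives, among them without WT1, WT2, KO2 or KO3. Of 15 factors related to the sensors 1 fell and 1 rose (6.67% each): Creb3l1, a membrane-bound factor of the same family as ATF6 that is known for raising collagen synthesis in bone, fell by 0.57, and its relative Creb3 rose by 0.54. The rise of Creb3 was lost without WT2, KO1 or KO3. Atf6b, the closest relative of Atf6, averaged 33.3 ± 2.95 FPKM with Alox5KO medium and 36.2 ± 3.34 FPKM with WT medium (SD, n = 3 each), with overlapping groups and a 95% interval of -0.36 to 0.12 for the log2 fold change.

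**Figure D5:**
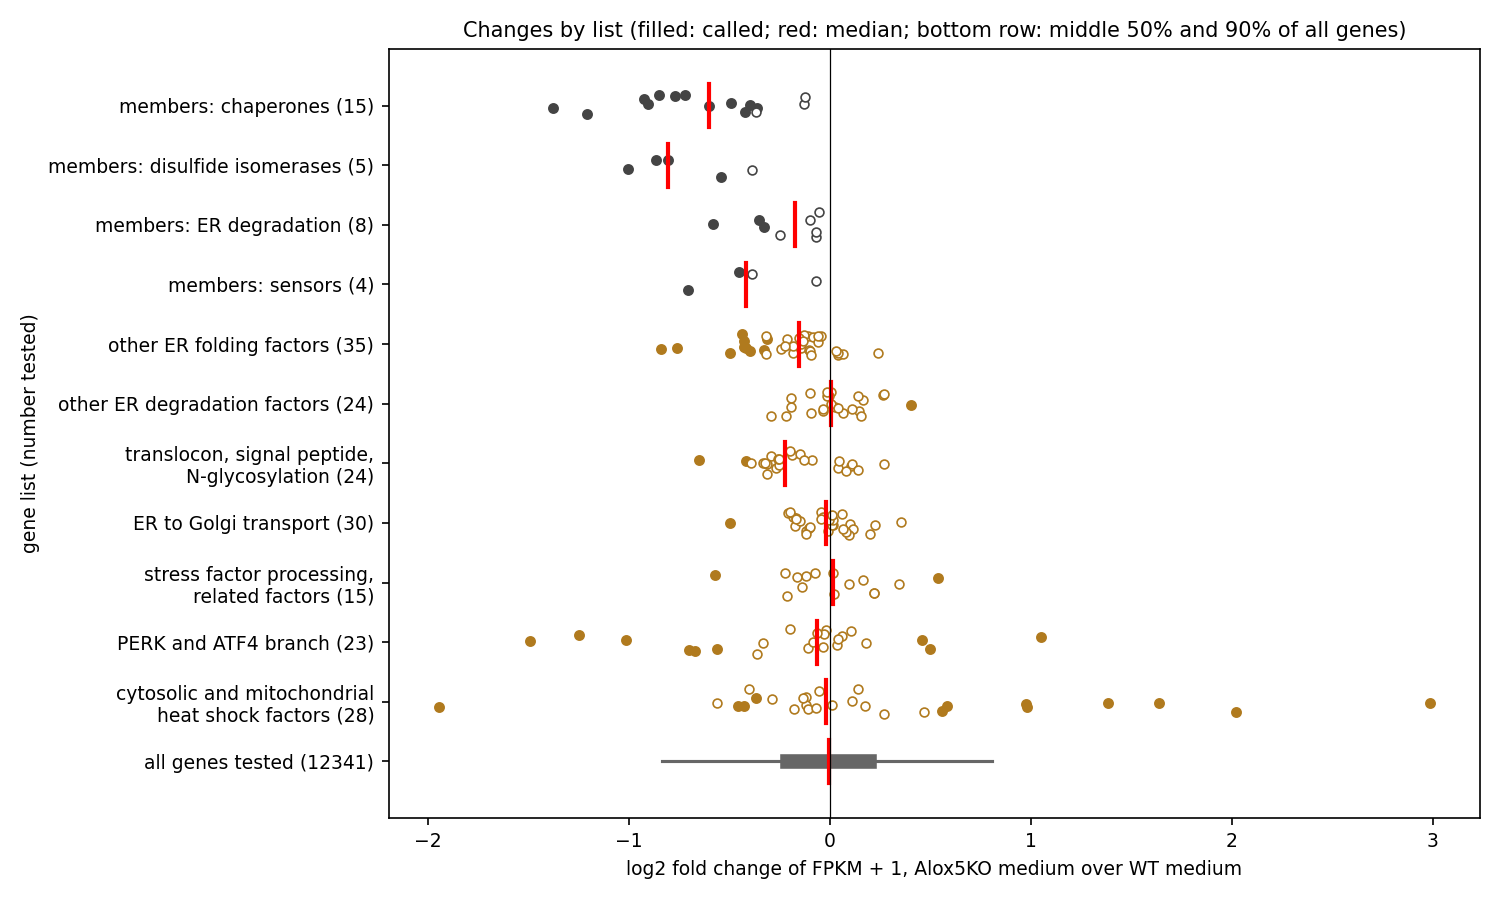
The log2 fold change, Alox5KO medium over WT medium, of every tested gene in the 4 member groups (grey) and 7 related lists (ochre), with called genes filled and the median of each list in red. The bottom row shows the median, the middle 50% and the middle 90% of all 12341 genes tested. Every grey point lies below 0 in this fit (Selenos, Eif2ak3 and Herpud1 did not in some alternatives), while the related lists spread to both sides.

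Chaperones outside the reticulum moved in both directions. Of 28 tested cytosolic and mitochondrial heat shock genes 8 rose (28.6%, against 10% of all genes tested) and 4 fell (14.3%, against 10.6%), with a median log2 fold change of -0.02. The rises were led by small heat shock proteins of muscle: Cryab averaged 413 ± 28.2 FPKM with Alox5KO medium and 51.3 ± 6.28 FPKM with WT medium (SD, n = 3 each), a log2 fold change of 2.99 (adjusted p = 1.1e-06, limma with Benjamini-Hochberg adjustment), and Hspb7 rose by 2.02. Dnajb4, a cytosolic DNAJ protein, rose by 1.38. Hspb8, another small heat shock protein, had 23.8, 27.3 and 22.5 FPKM with Alox5KO medium, against 109, 104 and 80.7 FPKM with WT medium, groups far apart, with a log2 fold change of -1.95. Hsp90ab1, the cytosolic counterpart of Hsp90b1, and Hsph1 fell by 0.46 and 0.43. The calls of Hsp90ab1 and Hsph1 were both lost without WT1, WT2 or KO1, that of Hsph1 also without KO3 and that of Hsp90ab1 also with quantile normalization. Without WT1, WT2 or KO1 this list had 1 fall, and without KO3 or with quantile normalization it had 2. Hspa1b, the inducible cytosolic HSP70, stayed under 2 FPKM in every library and did not pass the test.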

How the data were processed

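RNA of 3 samples with Alox5KO medium and 3 with WT medium was sequenced, after TRIzol extraction and NEBNext Ultra RNA library preparation, per the labels' protocols. Tools named with no role, per the submitters' processing notes, were DESeq2 1.20.0, HISAT2 2.0.5, fastp, CASAVA 1.8 and featureCounts 1.5.0-p3, beside mm10, a mouse build. Per the labels the organism is mouse, yet rat Ensembl identifiers stand on 32883 of 33682 rows, mouse identifiers on 0, and 799 rows are unannotated loci. The authors deposited FPKM values with gene length, biotype and position, per the file headers. The sources used here do not say whether counting used strand. On the table's coordinates Dnajc3, Pdia3, Ero1b, Syvn1 and Derl3 overlap a row on the opposite strand. The 6 members Calr, Sec61a1, Pdia5, Pdia6, Syvn1 and Derl3 share a Swiss-Prot entry name with another row. Those other rows had means of 0 to 2.94 FPKM. Hsp90b1, Pdia3, Pdia4 and Atf6 overlap a row on the same strand, which had a mean of 0 FPKM at Hsp90b1, Pdia4 and Atf6. The values of all these members are less certain.

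Reads were recovered from the step that divides FPKM times gene length into whole numbers in each library, which held for 100% of values above 0 within 0.05 reads. At 1 kilobase, 3 reads correspond to between 0.185 and 0.228 FPKM, a floor that covers counting error only. Groups were compared over the 12341 genes whose mean reached 1 FPKM, as log2(FPKM + 1), with limma 3.58.1 in R 4.3.3 (variance trend, robust prior, two-sided, Benjamini-Hochberg adjustment over all genes at 0.05). Fold changes are Alox5KO medium minus WT medium and understate changes of low genes. The fit was tested on simulated data. Role groups, related lists and members were chosen with earlier results of these data known. List counts are descriptions beside the share over all genes. Named are all members, the 3 genes of smallest p per direction among called genes of each related list, Atf4, Ddit3, Atf3, Trib3, P4hb, Atf6b and Hspa1b, and the top gene of a marker list. Per-sample values are given for all called members, all sensors and other members that the text turns on. The list symbols Pdia2, Uggt2, Fkbp11, Marchf6, Srp54, Srp72, Srprb, Stt3a, Mia3, Nupr1 and Hspa1a were not matched.

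The 16 alternatives were pseudocounts of 0.1 and 0.5, no filter or a filter at 5 FPKM, quantile, median of ratios and TPM scaling, limma without trend and robust prior, limma voom on recovered reads, the replicate number as a block, and the omission of each library. Replicate pairs differed by more than sampling noise. The chi-square per degree of freedom was 6.39 between WT1 and WT2, and 18.4 to 25.9 between the other pairs within a group.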

Additional observations from a re-analysis of the deposited data

How the results depend on the processing

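Of 510 fold changes of members recomputed under the alternatives, 468 kept their direction and their side of the threshold, 35 lost the call and 2 gained it (Dnajb9 at a mean of at least 5 FPKM and Ern1 with limma voom). The other 5 changed sign, all for genes that did not pass the test. Selenos had log2 fold changes of 0.0166 under quantile normalization and 0.0046 with TPM scaling, and ranged from -0.1179 to 0.0269 with 1 library left out (the highest without Alox5KO-medium replicate 2). With 1 library left out, Eif2ak3 ranged from -0.1349 to 0.0056 (the highest without WT-medium replicate 3) and Herpud1 from -0.1382 to 0.0131 (the highest without Alox5KO-medium replicate 1). The cause was not tested. Members called lower numbered 14 to 20 with 1 library left out and 18 to 21 under the other alternatives, and members called higher numbered 0 throughout. Over all genes tested, with 1 library left out, 850 to 1310 were called lower and 787 to 1228 higher, the lowest counts being those without WT-medium replicate 1. The median over all genes moved to at most 0.06, with TPM scaling. Of the genes of the PERK branch, Atf4 had log2 fold changes of 0.0671 under quantile normalization, 0.0442 with TPM scaling and 0.0111 with limma voom, and ranged from -0.0642 to 0.0282 with 1 library left out. Trib3 had 0.0147 under quantile normalization and 0.0322 with TPM scaling, and ranged from -0.117 to 0.0802 with 1 library left out. Neither gene passed the test in any alternative.

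Both groups carry replicate numbers 1 to 3, but same-numbered samples deviated from their group means with correlations of -0.0963, 0.105 and 0.167, and not every sample correlated best with its own number, so the numbers were not taken as pairs. With the replicate block, 19 members were called lower and 0 higher, the calls of Ppib and Sel1l being lost, and over all genes 1375 were called lower.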

Other observations

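The fall was larger in value among abundant members. The 10 most abundant members, with means of 224 to 1057 FPKM, had a median log2 fold change of -0.76, and 9 of them fell. The other 22 tested members, with means of 3.72 to 162 FPKM, had a median of -0.39, and 12 of them fell. Over all genes tested 10.6% were called lower. The exception among the abundant members was Sec61b. The largest fall of all, that of Sdf2l1, was among the other members, at a mean of 36.3 FPKM. Adding 1 FPKM also understates changes of low genes: Ero1b had a log2 fold change of -0.86 here and -1.04 with a pseudocount of 0.1.

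Within the WT group, WT-medium replicate 3 had the lowest level of 23 of the 33 members and WT-medium replicate 2 the highest of 21. Without WT-medium replicate 3 the median log2 fold change of the members was -0.48, and 20 fell. Outside the members, 37 gene symbols had ERSE or ERSE-II in a mouse promoter, of which 13 were tested here. Of these 13, 3 fell and 3 rose, against 10.6% lower and 10% higher over all genes tested. Their median log2 fold change was -0.14.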
